A study of Mus musculus with 8 samples.

Results

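The genes of indirect pathway medium spiny neurons, which are the striatal projection neurons that express the dopamine D2 receptor, were examined in striatum RNAseq of WT and 16p11.2+/- mice. The members were 6 known genes of this cell type, Drd2, Adora2a, Penk, Gpr6, Gpr52 and Sp9, listed by symbol with no measured value in the rule. By symbol, 5 of the 6 matched a row among the 55032 genes of the series, and Gpr52 was not analysed here. All mice were females of the strain C57BL/6 at P60, 4 of them WT and 4 of them 16p11.2+/-. The 16p11.2+/- mice carry in every cell a heterozygous deletion of the mouse segment that corresponds to human 16p11.2, in a line that came from the Jackson Laboratory. WT mice carry no deletion. Each mouse gave 1 library of total RNA from a frozen piece of striatum, and mice are named by the numbers on their labels, with the letters DF for 16p11.2+/-.

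Medium spiny neurons are the GABAergic output neurons of the striatum and fall into a direct and an indirect pathway class. Direct pathway neurons project to the substantia nigra and the internal globus pallidus and express the dopamine D1 receptor, substance P and dynorphin, and indirect pathway neurons project to the external globus pallidus and express the dopamine D2 receptor, the adenosine A2a receptor and enkephalin. In indirect pathway neurons the D2 receptor couples to inhibitory G proteins and lowers cyclic AMP, whereas the A2a receptor couples to the stimulatory G protein of the striatum and raises it. Dopamine is known to restrain the indirect pathway through the D2 receptor, and drugs that block D2 receptors raise enkephalin mRNA in striatum.

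The 5 members matched lie on 4 chromosomes. In GENCODE M21 (GRCm38), Drd2 (ENSMUSG00000032259) is found at chromosome 9, forward strand, from 49340627 to 49408177 and Adora2a (ENSMUSG00000020178) at chromosome 10, forward strand, from 75316877 to 75334784. Gpr6 (ENSMUSG00000046922) is found at chromosome 10, reverse strand, from 41069977 to 41072285, Penk (ENSMUSG00000045573) at chromosome 4, reverse strand, from 4133531 to 4138819 and Sp9 (ENSMUSG00000068859) at chromosome 2, forward strand, from 73271925 to 73284706. All 5 are protein-coding, and their exon lengths, from 1634 to 5044 bases, equal those implied by the deposited FPKM. Of the exon sequence of Penk, 14.26% overlaps A830012C17Rik on the opposite strand, and of that of Sp9, 5.35% overlaps Cir1 on the opposite strand. The sources used here do not state whether the counting used strand, so this share of the counts of Penk and Sp9 is uncertain. None of the exon sequence of Drd2, Adora2a or Gpr6 overlaps another annotated gene.

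The sequence before the transcription start was at hand in RefSeq (GRCm38.p6) for 3 of the 6 listed members, Drd2, Gpr6 and Sp9. The 250 bases before the start are shown for these genes because 4 of the 5 members moved together across mice and Sp9 less so, and the sequences of Drd2, Gpr6 and Sp9 belong to both kinds. They span chr9:49340153-49340402 on the forward strand for Drd2, chr10:41072291-41072540 on the reverse strand for Gpr6 and chr2:73271676-73271925 on the forward strand for Sp9. Each window is written 5′ to 3′ along the gene. The start meant is that of RefSeq. For Drd2 it lies upstream of 49340627, the GENCODE start given above. Capitals mark matches to a pair of motifs searched on both strands, the GC box GGGCGG, which reads CCGCCC on the other strand and is the core of sites bound by Sp family factors, and the cyclic AMP response element TGACGTCA, which reads alike on both strands. The motifs do not overlap each other.
Drd2: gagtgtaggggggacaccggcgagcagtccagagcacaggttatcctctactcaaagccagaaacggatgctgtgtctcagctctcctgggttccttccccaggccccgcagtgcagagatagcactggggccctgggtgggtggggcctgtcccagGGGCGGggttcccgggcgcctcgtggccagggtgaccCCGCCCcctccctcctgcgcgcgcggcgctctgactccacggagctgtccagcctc
Gpr6: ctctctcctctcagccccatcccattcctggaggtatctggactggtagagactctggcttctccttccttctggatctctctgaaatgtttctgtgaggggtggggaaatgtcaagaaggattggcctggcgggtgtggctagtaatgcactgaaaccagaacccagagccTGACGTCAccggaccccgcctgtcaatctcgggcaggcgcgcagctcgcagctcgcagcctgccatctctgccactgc
Sp9: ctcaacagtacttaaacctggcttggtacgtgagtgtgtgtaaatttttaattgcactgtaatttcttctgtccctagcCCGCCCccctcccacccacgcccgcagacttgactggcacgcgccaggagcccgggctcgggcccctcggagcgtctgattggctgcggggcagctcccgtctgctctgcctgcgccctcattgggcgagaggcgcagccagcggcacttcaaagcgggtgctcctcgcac
Drd2 had 2 GC boxes and no cyclic AMP response element, Gpr6 had 1 cyclic AMP response element, whose first base lies 78 bases before the start, and no GC box, and Sp9 had 1 GC box and no cyclic AMP response element. Of 32851 such windows in RefSeq, 32.7% held the GC box and 1.55% held the cyclic AMP response element. The letters G and C made up 68.8% of the window of Drd2, 58.4% of that of Gpr6 and 62.4% of that of Sp9. These matches describe the letters and say nothing of binding.

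The total count over genes was from 15125051 to 16523429 per mouse. The genotype labels were checked on 16 genes of the deleted segment, whose summed FPKM (counts scaled to exon length and to the total count of the mouse) was between 565.2 and 594.1 in WT mice and between 279.0 and 307.6 in 16p11.2+/- mice. Mice DF-1037 and DF-1062 stood apart from the other 6 in genes that all medium spiny neurons share. The summed FPKM of 10 such genes, among them Ppp1r1b (DARPP-32, a phosphatase inhibitor that dopamine signalling regulates) and Pde10a, a phosphodiesterase of the striatum, was 380.1 in DF-1037 and 269.9 in DF-1062, against 910.8 to 1523 in WT mice and 1342 and 1421 in the other 16p11.2+/- mice. At 307.6 and 306.1 for the deleted segment, both mice lay at the level of 16p11.2+/- mice. The pair was singled out after its values had been seen, so that statements on it are descriptions of these mice without a test, and the group comparisons of the members, ratios and lists are given with and without them. Markers of neighbouring tissue also differed between pieces. The summed FPKM of 8 thalamus markers was 237.5 in DF-1037, 158.4 in DF-1062, 118.1 in DF-1018 and 231.8 in WT-1063, and between 16.38 and 27.35 in the other 4 mice. In bulk striatum, fewer medium spiny neurons in a piece and less RNA per neuron cannot be told apart.

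The comparison of 16p11.2+/- with WT striatum asked whether mRNAs that mark the indirect pathway differ with the deletion. None of the 5 members passed the test. In all 5 the mean FPKM was lower in 16p11.2+/- mice, and without DF-1037 and DF-1062 it was higher than in WT in all 5. The pair was picked for low values of medium spiny neuron genes, so leaving it out raises the 16p11.2+/- mean by construction. WT-1063, which had the lowest WT values of Drd2, Penk, Gpr6 and Sp9, was kept. Nothing is read from the turn of direction. In DF-1037 and DF-1062, Drd2, Adora2a, Penk and Gpr6 had between 19.4% and 33.7% of the WT mean, whereas DF-1018 and DF-1059 lay within the WT range or just above it. Sp9 was at 43.4% and 70.9% of the WT mean in these mice. Of 8 direct pathway genes, 3 (Drd1 among them) were under 50% of the WT mean in both mice, whereas Pdyn and Isl1 were not low in both, and the ratio of Drd2 to Drd1 stayed between 0.818 and 1.07 in all 8 mice.

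**Figure D1:**
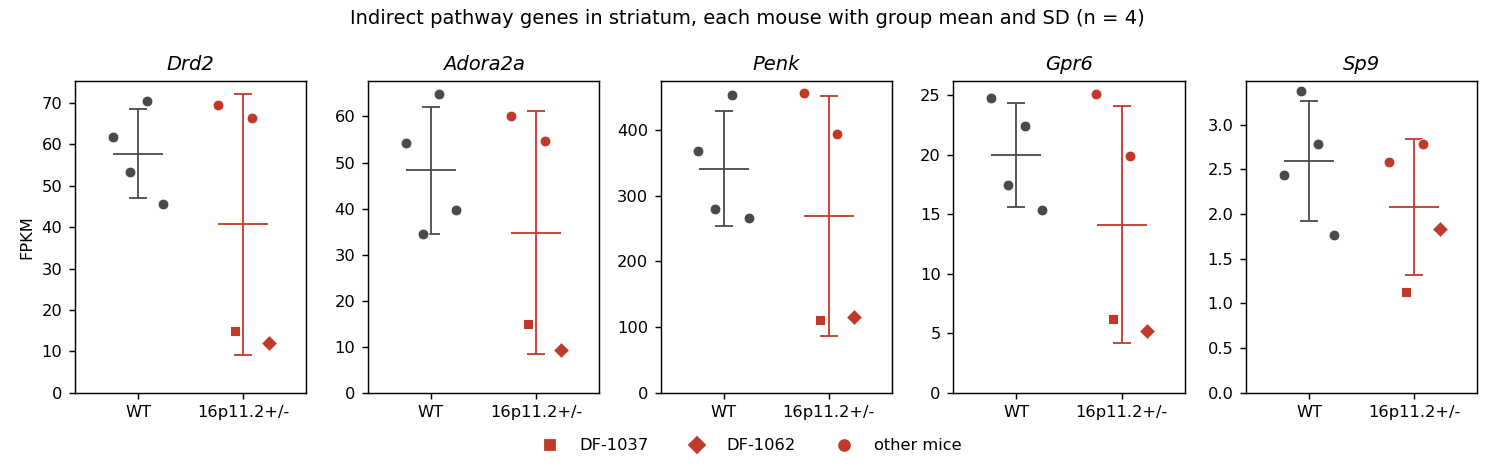
FPKM of Drd2, Adora2a, Penk, Gpr6 and Sp9 (vertical axes, each from 0) in WT (grey) and 16p11.2+/- (red) striatum. Points are single mice, the square is DF-1037, the diamond is DF-1062, and the horizontal line with bars is the mean ± SD (n = 4 mice). In 4 of the 5 panels these 2 mice lie below every other mouse.

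Drd2, the dopamine D2 receptor that inhibits adenylyl cyclase, had an FPKM of 61.8, 53.3, 70.4 and 45.5 in WT-1015, WT-1041, WT-1061 and WT-1063. It was 69.4 in DF-1018, 14.9 in DF-1037, 66.4 in DF-1059 and 11.98 in DF-1062. The groups overlapped: 2 of the 16p11.2+/- mice were within the WT range, and the other 2 were 3.87 and 4.82 times below the WT mean. The mean was 57.8 ± 10.7 in WT and 40.7 ± 31.5 in 16p11.2+/- striatum (mean ± SD, n = 4 mice each), a difference of -17.1 (95% interval -58.4 to 23.8, two-sided exact permutation test, p = 0.371). With edgeR's quasi-likelihood test and Benjamini-Hochberg adjustment over all genes, the log2 fold change was -0.51 (standard error 0.56, 95% interval -1.78 to 0.76, adjusted p = 0.874). Without DF-1037 and DF-1062 the log2 fold change of Drd2 was 0.24 (edgeR adjusted p = 0.995).

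Adora2a encodes the adenosine A2a receptor, which is concentrated on the dendrites of indirect pathway neurons and stimulates adenylyl cyclase. Its FPKM was 54.2, 34.4, 64.9 and 39.6 in WT-1015, WT-1041, WT-1061 and WT-1063. In DF-1018 and DF-1059 it was 60.1 and 54.7, and in DF-1037 and DF-1062 it was 15.002 and 9.35. The value of DF-1062 was the lowest of the 5 members relative to WT, at 19.4% of the WT mean, and the groups overlapped. The mean FPKM was 48.3 ± 13.9 in WT and 34.8 ± 26.3 in 16p11.2+/- striatum (mean ± SD, n = 4 mice each), a difference of -13.5 (95% interval -55.5 to 25.7, exact permutation test, p = 0.400). The edgeR log2 fold change was -0.47 (standard error 0.57, 95% interval -1.76 to 0.81, adjusted p = 0.878), and 0.26 without both mice (edgeR adjusted p = 0.995).

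Gpr6 encodes an orphan receptor that raises cyclic AMP without an added ligand and is enriched in indirect pathway neurons. Its FPKM was 24.8, 17.5, 22.4 and 15.3 in WT-1015, WT-1041, WT-1061 and WT-1063, and 25.2, 6.24, 19.9 and 5.22 in DF-1018, DF-1037, DF-1059 and DF-1062. DF-1018 lay just above the highest WT mouse, DF-1059 lay within the WT range, and DF-1037 and DF-1062 lay at 31.2% and 26.1% of the WT mean. The mean was 20.0 ± 4.34 in WT and 14.1 ± 9.95 in 16p11.2+/- striatum (mean ± SD, n = 4 mice each), a difference of -5.86 (95% interval -19.5 to 9.81, exact permutation test, p = 0.343). Its edgeR log2 fold change of -0.50 (standard error 0.49, 95% interval -1.63 to 0.62, adjusted p = 0.864) was 0.18 without both mice (edgeR adjusted p = 0.995).

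Penk, the precursor from which the opioid peptides Met-enkephalin and Leu-enkephalin are cut, was the most highly expressed member per length. Its FPKM was 368, 279, 453 and 266 in WT-1015, WT-1041, WT-1061 and WT-1063, and 456, 111, 395 and 115 in DF-1018, DF-1037, DF-1059 and DF-1062. Again DF-1018 lay just above the WT range and DF-1059 within it, and the values of DF-1037 and DF-1062 were 32.5% and 33.7% of the WT mean. The mean FPKM was 341 ± 87.2 in WT and 269 ± 182 in 16p11.2+/- striatum (mean ± SD, n = 4 mice each), a difference of -72.2 (95% interval -342 to 190, exact permutation test, p = 0.514). For Penk the edgeR log2 fold change was -0.35 (standard error 0.49, 95% interval -1.45 to 0.76, adjusted p = 0.892) with all mice and 0.32 without both (edgeR adjusted p = 0.995).

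Sp9, a zinc finger transcription factor needed for the development of indirect pathway neurons, was the least expressed member, with between 87 and 261 counts per mouse. Its FPKM was 2.44, 3.38, 2.78 and 1.77 in WT-1015, WT-1041, WT-1061 and WT-1063, and 2.59, 1.12, 2.78 and 1.84 in DF-1018, DF-1037, DF-1059 and DF-1062. Here DF-1037 alone lay below every WT mouse, and DF-1062 lay above WT-1063. The mean was 2.59 ± 0.673 in WT and 2.08 ± 0.758 in 16p11.2+/- striatum (mean ± SD, n = 4 mice each), a difference of -0.51 (95% interval -2.25 to 1.01, exact permutation test, p = 0.400). The edgeR log2 fold change of Sp9 was -0.33 (standard error 0.30, 95% interval -1.02 to 0.36, adjusted p = 0.861), and 0.058 without both mice (edgeR adjusted p = 0.995).

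Across the transcriptome 18294 genes were tested, and 20 of them (17 lower and 3 higher), or 0.109%, had an adjusted edgeR p under 0.05. Of the 17 lower genes, 13 belong to the 16 deleted segment genes examined here. At an unadjusted edgeR p under 0.05 there were 790 genes, or 4.32%, and 0 of the 5 members were among these or the 20. With DESeq2, limma-voom and limma-trend 0 of the 5 passed after adjustment. The log2 fold changes of Drd2, Adora2a, Penk and Gpr6 were larger with limma than with edgeR, at -0.94, -0.86, -0.62 and -0.84 with limma-voom and at -0.88, -0.80, -0.60 and -0.72 with limma-trend on log2(FPKM + 1). With 4 mice against 4 the smallest exact p is 0.0286, and with both mice left out 4 against 2 cannot go below 0.0667. The FPKM of the groups did not overlap for 2.83% of all genes tested and for 0 of the 5 members. The 95% intervals of the 5 log2 fold changes reach from -1.78 to 0.81, and each of them holds both 0 and -1.0, the median log2 fold change of the deleted segment genes.

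**Figure D2:**
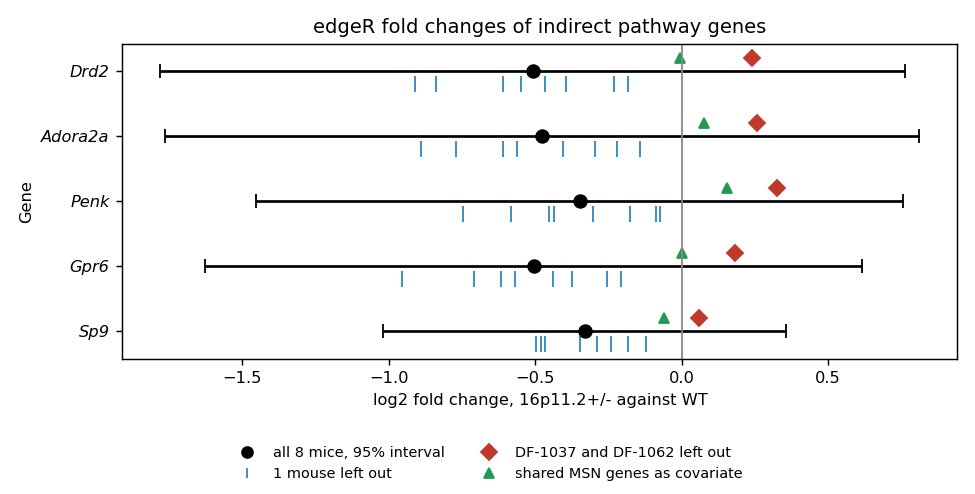
edgeR log2 fold change of 16p11.2+/- against WT striatum (horizontal axis) for the 5 members (rows). Black points with bars are all 8 mice with the 95% interval, blue ticks are fits with 1 mouse left out, red diamonds are fits without DF-1037 and DF-1062, and green triangles are fits with the mean level of shared medium spiny neuron (MSN) genes as covariate. All black bars cross 0, and all red diamonds lie above 0, from 0.058 for Sp9 to 0.32 for Penk.

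The spread between mice is given as a description. The SD of FPKM among 16p11.2+/- mice was 2.93 times that among WT mice for Drd2, 2.29 times for Gpr6, 2.09 times for Penk and 1.90 times for Adora2a, but 1.13 times for Sp9. From the lowest to the highest of the 8 mice FPKM differed 5.88-fold for Drd2, 6.94-fold for Adora2a, 4.11-fold for Penk, 4.82-fold for Gpr6 and 3.01-fold for Sp9. Within WT mice alone the members differed between 1.55-fold and 1.91-fold.

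The order of the members by FPKM was the same in 7 of the 8 mice, from Penk through Drd2, Adora2a and Gpr6 to Sp9. In DF-1037, Adora2a (15.002) and Drd2 (14.94) were nearly equal and changed places. Drd2 lay above Adora2a in 7 of the 8 mice, by 5.55 to 18.9 FPKM in the 4 WT mice and by 2.63 in DF-1062. In each mouse Penk lay above Drd2, Adora2a above Gpr6 and Gpr6 above Sp9. Ranked by mean FPKM among all genes tested, Penk was at percentile 99.7, Drd2 at 96.2, Adora2a at 95.1, Gpr6 at 84.6 and Sp9 at 37.2. The mRNAs of the enkephalin precursor and of both receptors were thus among the more abundant of these libraries, and that of the transcription factor was below the median gene.

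Direct pathway genes were read in the same mice. Drd1, the dopamine D1 receptor, which stimulates adenylyl cyclase, had an FPKM of 74.8, 52.1, 78.1 and 47.9 in WT-1015, WT-1041, WT-1061 and WT-1063, and 73.9, 18.3, 62.3 and 14.6 in DF-1018, DF-1037, DF-1059 and DF-1062. DF-1037 and DF-1062 were again the lowest 2 mice, at 28.9% and 23.1% of the WT mean, and the edgeR log2 fold change of Drd1 was -0.58 (adjusted p = 0.859), and 0.11 without both mice (edgeR adjusted p = 0.995). The ratio of Drd2 to Drd1 was 0.827, 1.02, 0.902 and 0.950 in the WT mice, and 0.939, 0.818, 1.07 and 0.820 in DF-1018, DF-1037, DF-1059 and DF-1062. Over the 8 mice it spanned 0.38 on the log2 scale, against 2.56 for the level of Drd2 and 2.42 for that of Drd1. The groups differed by -0.028 in the log2 ratio (95% interval -0.32 to 0.37, exact permutation test, p = 0.857). Group differences in this ratio below -0.32 or above 0.37 on the log2 scale lay outside the interval. Without both mice the log2 difference was 0.12 (exact permutation test, p = 0.400).

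The other pairs of an indirect and a direct pathway gene gave wider intervals. The ratio of Adora2a to Drd1 was 0.725, 0.660, 0.831 and 0.827 in WT mice, and 0.814, 0.821, 0.878 and 0.640 in DF-1018, DF-1037, DF-1059 and DF-1062 (log2 difference 0.048, 95% interval -0.38 to 0.41, exact permutation test, p = 0.771). The ratio of Penk to Tac1, the precursor of substance P, was 9.30, 8.24, 10.9 and 11 in WT mice, and 11.3, 7.67, 9.79 and 5.93 in DF-1018, DF-1037, DF-1059 and DF-1062. Here DF-1037 and DF-1062 were the lowest 2 mice, but the groups overlapped (log2 difference -0.22, 95% interval -0.89 to 0.46, exact permutation test, p = 0.429). Adjusted over the 3 ratios the exact permutation p was 0.857 for each. Without both mice the log2 difference was 0.16 for Adora2a to Drd1 (exact permutation test, p = 0.267) and 0.11 for Penk to Tac1 (exact permutation test, p = 0.600).

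**Figure D3:**
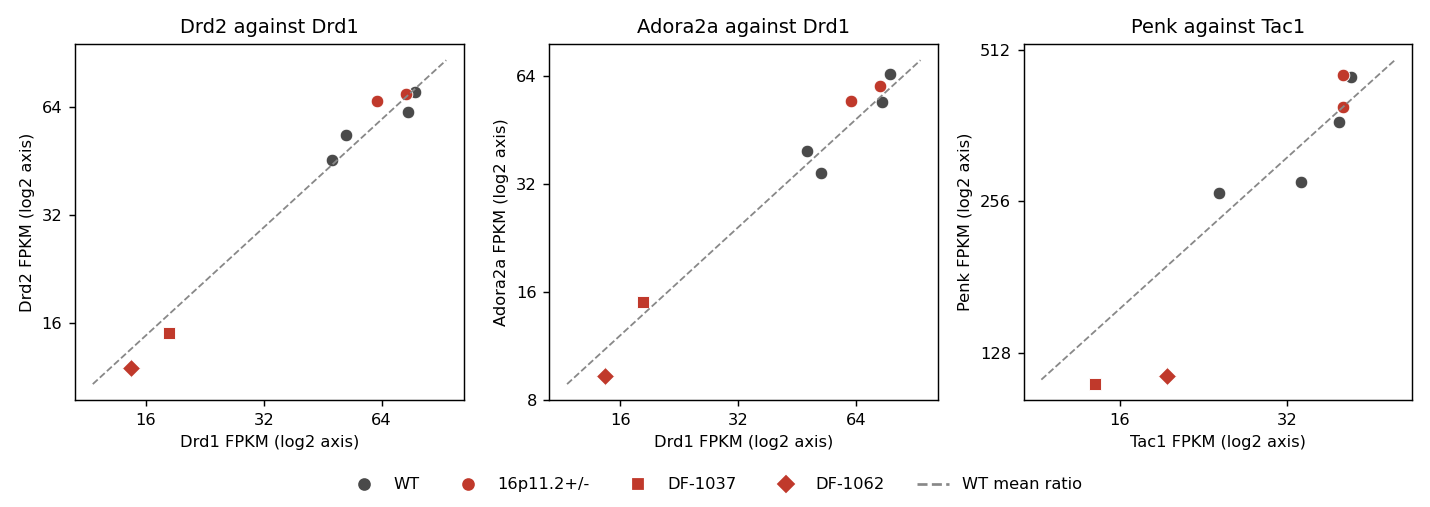
FPKM of Drd2 and Adora2a against Drd1 and of Penk against Tac1, on log2 axes, with 1 point per mouse (grey WT, red 16p11.2+/-, square DF-1037, diamond DF-1062). The dashed line is the geometric mean ratio of the WT mice; the ratio of Drd2 to Drd1 stays between 0.818 and 1.07 from the lowest to the highest mouse, and that of Penk to Tac1 is 5.93 in DF-1062.

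The remaining direct pathway genes did not all follow. Of the 8 direct pathway genes, 5 (Drd1, Tac1, Chrm4, Ebf1 and Slc35d3) had their lowest 2 values in DF-1037 and DF-1062. Pdyn, the dynorphin precursor, was at 79.2% and 102% of the WT mean in these mice. Isl1, a transcription factor of direct pathway and cholinergic neurons, was at 80.5% in DF-1037 and at 181% in DF-1062. The summed FPKM of 6 markers of cholinergic interneurons was 6.54 in DF-1037 and 38.04 in DF-1062, against 14.36 to 37.78 in WT mice. Among all genes tested, 9.46% had their lowest 2 values in these mice, against 4 of the 5 members and 10 of the 10 shared medium spiny neuron genes. In both mice FPKM was under 50% of the WT mean for 2.26% of all genes tested, for 4 of the 5 members, 9 of the 10 shared genes and 3 of the 8 direct pathway genes. Because the pair was singled out on such genes, nothing is read from these counts.

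Relative to the mean log2 FPKM of the 10 shared medium spiny neuron genes in the same mouse, the span of the members over the 8 mice went from 2.56 to 0.48 on the log2 scale for Drd2, from 2.80 to 0.50 for Adora2a, from 2.04 to 0.54 for Penk and from 2.27 to 0.26 for Gpr6. The groups differed by -0.13 for Drd2 (exact permutation test, p = 0.343), -0.051 for Adora2a (exact permutation test, p = 0.686), 0.19 for Penk (exact permutation test, p = 0.114) and -0.004 for Gpr6 (exact permutation test, p = 1). For Gpr6 the 95% interval of this difference ran from -0.19 to 0.26, the narrowest of the members. For Sp9 the span was not smaller, with 1.59 for its level and 1.81 relative to the shared genes, and DF-1062 lay 1.52 above the WT mean of this measure. The groups differed for Sp9 by 0.43 (95% interval -0.80 to 1.80, exact permutation test, p = 0.429). Without both mice these differences were 0.074 for Drd2, 0.12 for Adora2a, 0.17 for Penk, 0.012 for Gpr6 and -0.089 for Sp9, and the span relative to the shared genes, over 6 mice, was 0.23 for Drd2 against 0.63 for its level.

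**Figure D4:**
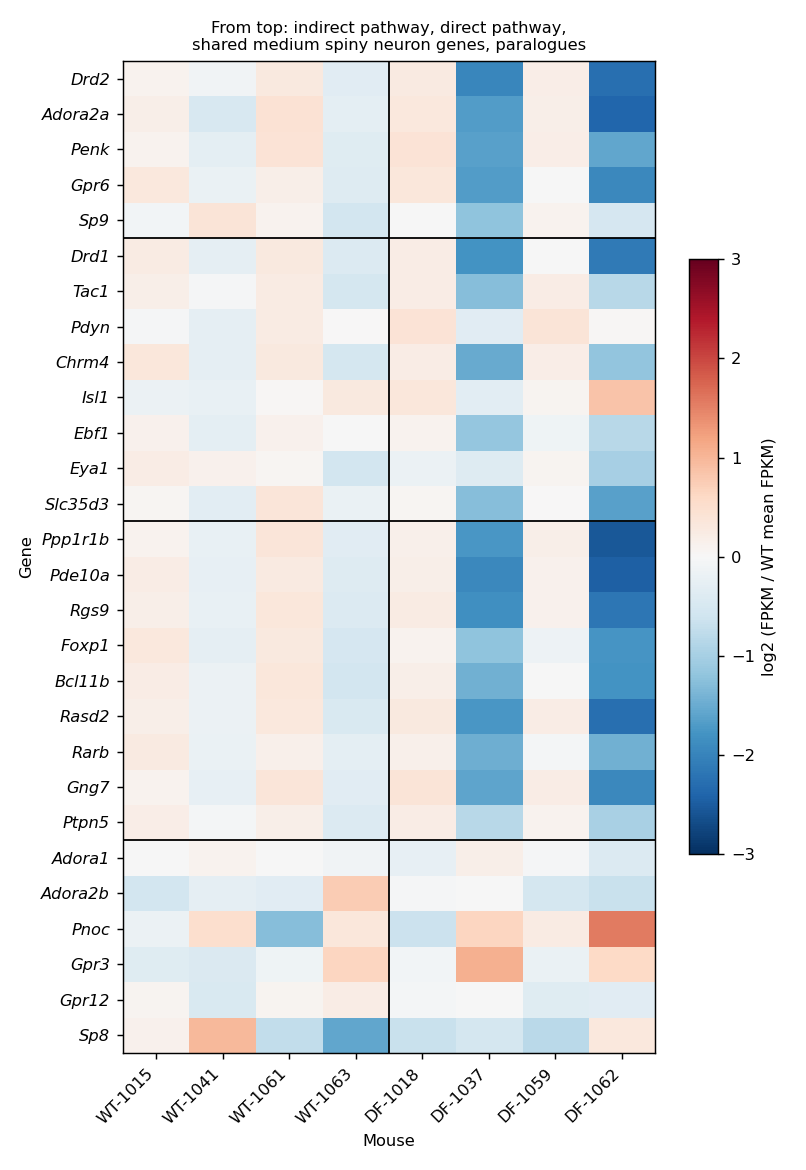
log2 ratio of FPKM to the WT mean (colour, blue lower and red higher) for each mouse (columns) and gene (rows), in blocks of indirect pathway members, direct pathway genes, 9 of the 10 shared medium spiny neuron genes and paralogues of the members with a WT mean of at least 1 FPKM. Columns DF-1037 and DF-1062 are blue in the blocks of indirect pathway and shared genes. In the direct pathway block DF-1037 is blue in all 8 rows and DF-1062 is mixed, and both are mixed among the paralogues.

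Likeness was measured as Pearson's r of log2 CPM (counts scaled to library size) over the 8 mice, among 12992 genes with a mean of at least 2 on that scale, and is given as a description without a test because all genes share the same libraries. Drd2 was most like Rgs9 (r = 0.998), Pde10a (0.997) and Rasd2 (0.996), all shared medium spiny neuron genes. Gpr6 was most like Drd1 (r = 0.997), Kcnab1 (0.997) and Rarb (0.996). Penk was most like Htr1b (r = 0.996), a serotonin receptor, Kdm4b (0.996) and Adcy5 (0.995), the main adenylyl cyclase of striatum. For Adora2a the genes were Cacna2d3 (r = 0.997), Taok1 (0.996) and the direct pathway gene Slc35d3 (0.994). Among themselves Drd2, Adora2a, Penk and Gpr6 had r from 0.978 to 0.990, whereas Sp9 had r from 0.698 (Adora2a) to 0.802 (Penk) with them and was most like Ddit4 (r = 0.985), Ip6k2 (0.980) and Patz1 (0.976). These r were computed over 8 mice of which 2 lie far below the rest.

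Other genes of the pathways of the members were examined by lists. Over all 18294 genes tested, as background for each list, 9484 had a negative log2 fold change and the median was -0.009. Of 7 further genes listed for indirect pathway neurons, 2 had a negative log2 fold change, 0 passed the test and the median was 0.099. Of these, Gucy1a1, a subunit of the nitric oxide receptor guanylate cyclase, alone had its lowest 2 values in DF-1037 (64.0% of the WT mean) and DF-1062 (87.6%), and Six3, a transcription factor, was at 127% and 93.9%. The summed FPKM of the 7 genes was between 56.71 and 62.07 in WT mice, 53.52 in DF-1037 and 60.95 in DF-1062. Which cells their RNA came from was not tested.

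On the dopamine and cyclic AMP side, 21 genes were tested, 15 had a negative log2 fold change, 0 passed the test and the median was -0.23. The lowest 2 values lay in DF-1037 and DF-1062 for 9 of them, against 9.46% of all genes tested. Among the 9, Gng7, Ppp1r1b, Pde10a and Rgs9 are also shared medium spiny neuron genes, and Drd1 is also a direct pathway gene. Because the pair was singled out on such genes, nothing is read from this count. Adcy5 and Pde1b, a phosphodiesterase, were also among the 9, at 40.0% and 35.8% and at 35.6% and 31.2% of the WT mean. So was Gnal, the stimulatory G protein subunit of striatum to which D1 and A2a receptors couple, at 61.4% and 57.3%. Inhibitory G protein subunits through which the D2 receptor signals were mixed in these mice, with Gnai1 at 108% and 119%, Gnai2 at 106% and 140%, Gnai3 at 88.8% and 87.5% and Gnao1 at 93.2% and 82.8% of the WT mean. Gnai3 had an unadjusted edgeR p under 0.05 (log2 fold change -0.23, adjusted p = 0.859).

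Of 9 genes for adenosine receptors and turnover, 6 had a negative log2 fold change and 0 passed the test, with a median of -0.16. Nt5e, the ecto-nucleotidase that forms adenosine outside the cell, was at 32.9% and 44.2% of the WT mean in DF-1037 and DF-1062 and alone had its lowest 2 values there. Adora1, the adenosine A1 receptor, which many neurons express, was at 113% and 75.3%, against 31.1% and 19.4% for Adora2a. Slc29a2, a nucleoside transporter, had an unadjusted edgeR p under 0.05 (log2 fold change 0.31, adjusted p = 0.859). Of 11 genes for enkephalin processing, breakdown and opioid receptors, 5 had a negative log2 fold change and 0 passed, with a median of 0.023. Mme (neprilysin, which cleaves enkephalins) was at 30.2% and 31.8% and Oprd1, the delta opioid receptor that enkephalins bind, at 66.6% and 53.2% of the WT mean in DF-1037 and DF-1062. Pcsk2, which cuts the enkephalin precursor, was at 94.5% and 72.9%. The other genes of this list were not below the WT mean in both mice, with Pcsk1 at 90.5% and 173% and Cpe at 127% and 106%.

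The closest relatives of the members were read as well. Of 11 paralogues tested, 6 had a negative log2 fold change and 0 passed the test, with a median of -0.13. The lowest 2 values lay in DF-1037 and DF-1062 for 0 of the 11, against 9.46% of all genes tested. With so few genes, nothing is read from this count. Gpr3 and Gpr12, the relatives of Gpr6, were at 209% and 98.6% of the WT mean in DF-1037 and at 152% and 79.1% in DF-1062. Sp8, the relative of Sp9, had an FPKM between 0.529 and 3.06 in WT mice and between 0.891 and 1.94 in 16p11.2+/- mice. Drd3 had an FPKM of 2.33 in DF-1062 against 0.386 to 0.762 in WT mice, and Drd4 had too few counts to be tested. Of all the lists other than the deleted segment, 119 of 122 genes were tested and 0 passed the adjusted edgeR threshold, whereas 9 had an unadjusted edgeR p under 0.05. Without both mice 0 listed genes passed either, and the median log2 fold change was 0.17 for the direct pathway genes, 0.16 for the shared medium spiny neuron genes, 0.14 for the further indirect pathway genes, 0.070 for dopamine and cyclic AMP signalling, -0.098 for adenosine, 0.14 for enkephalin and -0.13 for the paralogues.

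The 10 shared medium spiny neuron genes had an FPKM above 0 in each mouse. Markers of other cells and tissue are given beside the low values. Of the 8 thalamus markers 7 were above 0 in every mouse, with Shox2 at 0 in some, as were all 7 cortical markers. The summed thalamus markers were between 16.38 and 231.8 FPKM in WT and between 22.52 and 237.5 in 16p11.2+/- mice. DF-1037 had the highest summed FPKM of thalamus markers (237.5) and of 7 cortical glutamatergic neuron markers (166.1, against 36.29 to 117.6 in WT mice). DF-1062 had thalamus markers at 158.4 and cortical markers at 24.95. WT-1063, with thalamus markers at 231.8 and cortical markers at 36.29, had the lowest WT values of Drd2, Penk, Gpr6 and Sp9. Its Drd2 was at 45.5 FPKM and that of DF-1037 at 14.9. DF-1018 had thalamus markers at 118.1 and its members were at the WT level. With the thalamus markers as a covariate the edgeR log2 fold change was -0.20 for Drd2, Adora2a and Gpr6, -0.051 for Penk and 0.028 for Sp9. With the shared medium spiny neuron genes as a covariate it was -0.005 for Drd2, 0.076 for Adora2a, 0.16 for Penk and -0.06 for Sp9, and the adjusted edgeR p was 1 for each in both fits. Oligodendrocyte markers were between 830.5 and 1144 in 16p11.2+/- mice and between 1282 and 1537 in WT mice, so that DF-1018 and DF-1059, with members at the WT level, also lay below the WT range of these markers. The 6 GABA interneuron markers summed to 173.1 to 235.8 in WT mice, 319.1 in DF-1037 and 250.8 in DF-1062. Singly they went both ways in these mice, with Pvalb at 347% and 87.5% of the WT mean, Calb2 at 61.1% and 919% and Npy at 147% and 31.1%. The 6 astrocyte markers summed to 341.0 to 426.7 in WT mice, 390.4 in DF-1037 and 317.5 in DF-1062, and the 6 microglia markers to 87.71 to 120.2, 109.2 and 74.28. The 6 choroid plexus markers, which summed to 7.728 to 4414 in WT mice, were at 126.4 in DF-1037 and 18.22 in DF-1062. The part of other tissue in the low values of DF-1037 and DF-1062 was not tested.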

How the data were processed

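Total RNA of striatum from 4 WT and 4 16p11.2+/- mice was sequenced, 1 library per mouse. Reads were trimmed and mapped by the authors with Hisat2, and the raw counts per gene from Htseq-count were deposited. The authors also deposited FPKM, which was found to be the count over the gene length and the total of the mouse. The submitters' processing notes name Bowtie 0.12.2 and the builds mm8 and mm9, whereas the paper's methods give no build. Gene positions come from GENCODE M21 (GRCm38). Its exon lengths equalled those implied by FPKM within 1 base for 95.17% of 12704 genes compared. The deposited table of the authors' comparison (group means, log2 fold change, p-values) and a summary of FPKM in bins were not used.

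Counts of all genes were tested by the quasi-likelihood method of edgeR 4.0.16 (R 4.3.3) after TMM normalization and the default expression filter (at least 10 counts in a group's worth of mice and 15 in total) and adjusted by the Benjamini-Hochberg method over all 18294 genes tested, with a threshold of 0.05. Member FPKM and log2 ratios were tested by two-sided exact permutation over the 70 assignments of mice (scipy 1.17.1). The 95% intervals of FPKM and ratio differences are the shifts that this permutation test did not reject. Totals of 15125051 to 16523429 counts gave the least expressed member, Sp9, between 87 and 261 counts per mouse. For a symbol with more than 1 row the row with the largest total count was used. Code was tested on simulated data.

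Every member is named, and other genes come from lists of known genes. The members and lists were chosen with earlier results of these data known. For each member the 3 genes most like it were also named. Other list genes were named as examples after their values were seen. Alternatives tried were limma 3.58.1 (voom and trend), DESeq2 1.42.0, RLE factors, library totals, other filters, pseudocounts of 1 and 0.1, marker covariates and each mouse left out. Leaving out both DF-1037 and DF-1062 was added after seeing the data. Of the shared medium spiny neuron genes, 1 is not reported here on its own.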

Additional observations from a re-analysis of the deposited data

Results flagged for a closer look

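Of 44 groups of values examined (members, ratios and summed marker lists, by genotype), 4 held a mouse distant from the rest, where about 1 in 20 would by chance. Divided by the range of its group, the distance to the next mouse was 0.949 for the summed thalamus markers of WT-1063 (231.8 FPKM against 16.38 to 27.35 in the other WT mice), the WT mouse with the lowest Drd2, Penk, Gpr6 and Sp9. It was 0.894 for the summed choroid plexus markers of the same mouse (4414 FPKM) and 0.878 for those of DF-1037 (126.4 FPKM). For the summed microglia markers of DF-1062 it was 0.868 (74.28 FPKM against 104.6 to 109.2 in the other 16p11.2+/- mice). None of the members or ratios was among these. For Drd2, Adora2a, Penk and Gpr6 this measure could not single out DF-1037 or DF-1062, because these mice lie close to each other. The FPKM of Drd2 was 14.9 in DF-1037 and 11.98 in DF-1062, against 69.4 in DF-1018 and 66.4 in DF-1059. That these members were not flagged therefore does not show that they hold no distant mice.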

How the results depend on the processing

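No member and no gene of the other lists, the deleted segment aside, passed the adjusted threshold in any alternative run. The adjusted edgeR, limma or DESeq2 p of the members was at least 0.651. The negative direction of the members rested on DF-1037 and DF-1062, which were singled out for low values of medium spiny neuron genes. Without both, the edgeR log2 fold change was 0.239 for Drd2, 0.256 for Adora2a, 0.324 for Penk, 0.181 for Gpr6 and 0.058 for Sp9, the FPKM difference was 10.13, 9.156, 83.98, 2.554 and 0.0934 in the same order, and the log2 ratio was 0.117 for Drd2 to Drd1 and 0.105 for Penk to Tac1. With 1 mouse left out the edgeR log2 fold changes stayed negative, from -0.911 to -0.184 for Drd2, -0.891 to -0.142 for Adora2a, -0.745 to -0.074 for Penk, -0.955 to -0.207 for Gpr6 and -0.497 to -0.123 for Sp9, with the values nearest 0 without DF-1062 or DF-1037. The log2 ratio of Drd2 to Drd1 then ranged from -0.107 to 0.022 and that of Adora2a to Drd1 from -0.0178 to 0.145. Other turns of direction were 0.076 for Adora2a and 0.156 for Penk with shared medium spiny neuron genes as covariate, 0.028 for Sp9 with thalamus markers as covariate, and, relative to the shared genes, 0.187 for Penk and 0.432 for Sp9. The cause was not tested. Limma-voom and limma-trend gave larger log2 fold changes for Drd2 (-0.94 to -0.883), Adora2a (-0.863 to -0.803), Penk (-0.624 to -0.603) and Gpr6 (-0.837 to -0.721), while those of Sp9 were from -0.379 to -0.237. Genes past the threshold over all genes numbered 20, 31 with DESeq2, 10 with thalamus markers as covariate, 11 without both mice and 8 to 18 with 1 mouse left out. With 4 mice a group, the 95% intervals leave log2 fold changes between -1.78 and 0.81 undecided. No paired analysis was possible because the labels give no replicate numbers, and the numbers used here follow the order of deposit and pair no mice.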
